A study of Homo sapiens with 4 samples.

Results

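The response of control DAOY cells to SAG was read from 1 pair of libraries, CTL cells with the vehicle DMSO and CTL cells with SAG. Of the 20363 genes in the count table, the 15169 with at least 10 raw counts in at least 1 of these libraries were its members, and the pair makes up 2 of the 4 libraries sequenced. DAOY is an established line grown from a human medulloblastoma, a tumour of the cerebellum, and SAG is a small-molecule agonist of Smoothened (SMO). The other 2 libraries came from DAOY cells carrying a ZNF521 vector, with DMSO and with SAG. Per the study's methods, SAG was given for 48 h after 24 h of starvation, and the dose of the sequenced cells is not named. The description of the series calls the controls wild type whereas the study's text gives them a control vector, so which of these the CTL cells were is not settled. With 1 library a side, the CTL pair taken alone allows no test between SAG and DMSO, and a fit over both kinds of cells was not made here. Each ratio of SAG to DMSO is given with an exact 95% interval that covers counting error only and leaves out the spread between cultures.

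In the Hedgehog pathway a secreted ligand binds the receptor Patched (PTCH1), which otherwise holds SMO inactive. Active SMO gathers in the primary cilium, where protein kinase A and SUFU lose their hold on the GLI factors. GLI2 and GLI3 then act as activators in place of repressors. GLI1, PTCH1 and HHIP are classical targets of the pathway: GLI1 is itself an activator, and PTCH1 and HHIP bind the ligand and limit its signal. In the cerebellum the pathway drives the division of granule neuron precursors, and its mutation underlies a molecular subgroup of medulloblastoma.

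The libraries held 13468912 raw counts in CTL cells with DMSO and 12294833 in CTL cells with SAG, against 13366535 and 16314685 in the ZNF521 cells. The library of CTL cells with DMSO stood apart from the other 3. Over the 9161 genes with a mean normalised count of at least 200, where a normalised count is the raw count divided by the authors' size factor, the SD of its log2 deviations from the gene means was 0.274, against 0.126 to 0.143 in the others. Every ratio described here has this library as its denominator. For the main genes its level is therefore set beside that of the ZNF521 cells, and its part in the results was not tested. ZNF521 was read at 714 and 751 normalised counts in the CTL libraries and at 2013 and 2072 in the ZNF521 libraries. Markers of the cell type were mixed: of the granule precursor markers, ATOH1 had 1 raw count in each library and BARHL1 had 0 in both CTL libraries, which allows up to 3, while ZIC1 had 264 and 269 and MEIS1 had 840 and 902. The mesenchymal gene VIM had 29229 and 26313 raw counts and the keratin gene KRT18 7129 and 7201, whereas the 9 blood cell markers in the table had 0 to 13 in the CTL libraries.

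With SAG, 213 of the 15169 genes (1.4%) were at least 2-fold higher with an interval above 1, and 450 (2.97%) were at least 2-fold lower with an interval below 1. Of these, 31 were at least 4-fold higher and 76 at least 4-fold lower. The median log2 ratio of all genes was 0.0031, with quartiles of -0.30 and 0.28, while in the ZNF521 cells the quartiles were -0.15 and 0.16. A ratio above 1 was found in 7631 genes (50.3%). Without regard to size, the interval lay above 1 for 4134 genes (27.3%) and below 1 for 3497 (23.1%). Counts of list members given below are to be read beside these shares. In 9 genes CTL cells with SAG had a count of 0 against 10 to 16 with DMSO, so that these were at least 2.97- to 4.75-fold lower, against a floor of 3 counts. No tested gene had a count of 0 in CTL cells with DMSO. The plot of ratio against level shows that 118 of the higher and 195 of the lower genes had a mean normalised count of at least 50 over the pair, and the remainder rested on few reads.

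**Figure D1:**
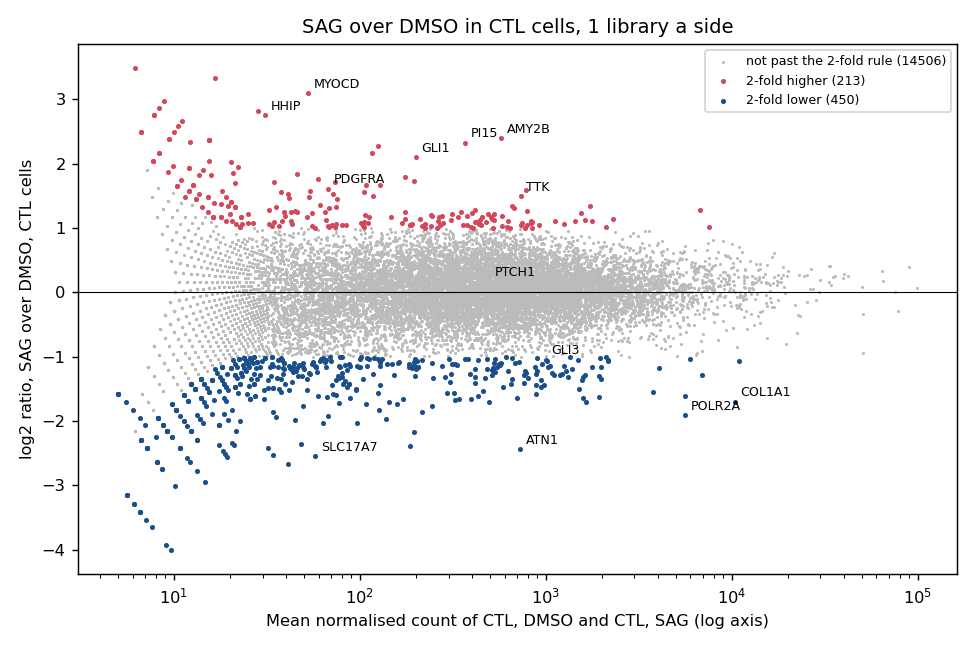
The log2 ratio of SAG over DMSO in CTL cells (vertical axis) is plotted against the mean normalised count of the pair (log axis) for 15169 genes, each a point, with 213 genes at least 2-fold higher in red, 450 at least 2-fold lower in blue and all others in grey. GLI1, MYOCD, PI15 and HHIP lie far above the bulk of genes of like level, while PTCH1 lies within it.

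In 200 of the 213 higher genes (93.9%) CTL cells with DMSO had the lowest level of the 4 libraries, and in 431 of the 450 lower genes (95.8%) the highest. Over all tested genes these shares were 36.8% and 35.6%, but the 2-fold genes were chosen by a ratio to this same library. That choice raises both shares by itself, so this comparison does not measure how far the library departs. ZNF521 cells with DMSO, which were also left without SAG, lay nearer to CTL cells with DMSO than to CTL cells with SAG in 38 of the higher genes (17.8%) and in 151 of the lower genes (33.6%). Over all tested genes this share was 37.9%, and that of the lower genes was near it. The 2-fold genes were chosen by the ratio of these same CTL libraries, which can shift their shares by itself. This comparison therefore does not measure a departure or a response either. Of the 313 2-fold genes with a mean normalised count of at least 50, the other 3 libraries lay within 1.5-fold of each other in 260 (83.1%), and of all 663 in 351 (52.9%). The like share over all tested genes was not computed, so these shares do not show that the 2-fold genes differ from other genes. A departure of this library and a response to SAG cannot be told apart from the CTL pair alone.

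Of the Hedgehog target genes, GLI1 lies at chr12:57459785-57472268 of hg38 on the plus strand. GLI1 was read at 75.4 normalised counts in CTL cells with DMSO and 324 with SAG, and at 44.2 and 318 in the ZNF521 cells. Both SAG libraries thus lay above both DMSO libraries, and CTL cells were 4.29-fold higher with SAG (log2 ratio 2.10, interval 1.73 to 2.49). HHIP, the decoy receptor that binds Hedgehog ligands, at chr4:144646156-144745271 on the plus strand, went from 8.04 to 54.1 normalised counts in CTL cells and from 7.20 to 78.5 in ZNF521 cells. Its ratio in CTL cells was 6.73-fold (log2 2.75, interval 1.66 to 4.04), on 8 raw counts with DMSO. Of the exon bases of HHIP, 6.81% overlap HHIP-AS1 on the other strand. PTCH1, the receptor and negative regulator, at chr9:95442980-95517057 on the minus strand, had 468 and 527 normalised counts in CTL cells and 301 and 579 in ZNF521 cells. Its log2 ratio in CTL cells was 0.17 (interval -0.02 to 0.36), so a difference was not detectable at this depth, and the lowest of its 4 levels was that of ZNF521 cells with DMSO.

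Of the 40 written Hedgehog targets 37 were tested, and their median log2 ratio was -0.03, against 0.0031 over all genes. The 2-fold rule was passed by 6 in the higher and 2 in the lower direction, that is GLI1, HHIP, PDGFRA, SPP1, MYCN and FOXA2 against NKX2-2 and FOXC2. PDGFRA, the platelet-derived growth factor receptor alpha, had 33.2 and 101 normalised counts in CTL cells and 46.3 and 111 in ZNF521 cells, again with both SAG libraries above both DMSO libraries, and shares 16.1% of its exon bases with another gene model on its strand. SPP1, which encodes the secreted protein osteopontin, had 42.2 and 106 in CTL cells but 104 and 144 in ZNF521 cells, so that CTL cells with DMSO alone were low. MYCN, a transcription factor that granule precursors need in order to divide, had 13.1 and 28.2 in CTL cells and 40.1 and 24.5 in ZNF521 cells, with the direction turned in the latter. FOXA2, a floor plate factor, rested on 3 and 11 raw counts in CTL cells (log2 ratio 2.04, interval 0.12 to 4.52) and was lower with SAG in the ZNF521 cells. The homeobox gene NKX2-2 had 61.3 and 25.9 in CTL cells, and the forkhead gene FOXC2 had 88.5 and 42.9. In both, the ZNF521 libraries lay within 31.9 to 38.1, below CTL cells with DMSO. SPP1 (0.84) and FOXC2 (-0.74) were no longer past 2-fold relative to genes of like GC content. Among the cell cycle targets, CDK6 was at 988 and 1627 in CTL cells and at 1238 and 1862 in ZNF521 cells (log2 ratios 0.72 and 0.59). CCND1, which encodes cyclin D1, had 895 and 1115 in CTL cells and 967 and 1089 in ZNF521 cells (0.32 and 0.17).

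The ligand genes were read at low levels. SHH had 19.1 and 14.7 normalised counts in CTL cells and 6.17 and 4.22 in ZNF521 cells, and DHH had 11.1 and 9.02 in CTL cells. The intervals of both included 1. Of the 8 tested genes for ligands and their release 7 had a ratio below 1, with the interval below 1 in 3, which were SCUBE1, DISP2 and SCUBE3, of families that release the ligand from its cell. DISP2 was at 171 and 103 in CTL cells and at 104 and 103 in ZNF521 cells, so that CTL cells with DMSO lay above the rest. SCUBE1 was at 84.4 and 48.5 and SCUBE3 at 285 and 213, with log2 ratios of -0.80 and -0.42, but in ZNF521 cells SCUBE3 was at 176 and 238 and so higher with SAG (0.44). The acyltransferase gene HHAT was at 143 and 124, the releasing factor DISP1 at 114 and 123, and SCUBE2 at 30.2 and 25.9, each with an interval that included 1. The list's median log2 ratio was -0.34 in CTL cells and -0.01 in ZNF521 cells. In CTL cells it was -0.18 relative to genes of like GC content, and -0.12 relative to genes of like GC content and length. SCUBE1 (-0.57), DISP2 (-0.60) and SCUBE3 (-0.28) were nearer to 0 relative to genes of like GC content.

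Of 10 tested receptors and co-receptors, 8 had a ratio below 1, with the interval below 1 in 5, and the median log2 ratio was -0.39. The median was -0.18 relative to genes of like GC content, -0.01 relative to genes of like GC content and length, and 0.06 in the ZNF521 cells. GAS1, a co-receptor that helps PTCH1 bind ligand, had 1018 and 603 normalised counts in CTL cells and 637 and 442 in ZNF521 cells, and it was lower with SAG in both (log2 ratios -0.76 and -0.53). GPC3, a glypican that competes for the ligand, had 458 and 250 in CTL cells (-0.87). The co-receptors BOC and CDON had log2 ratios of -0.44 and -0.42. SMO, the target of SAG, was at 3198 and 2500 in CTL cells and at 2671 and 2316 in ZNF521 cells (-0.35 and -0.21). Relative to genes of like GC content the ratio of SMO in CTL cells was -0.05 and that of BOC -0.26. The ciliary receptor GPR161, which raises cyclic AMP, had 916 and 836 (-0.13, interval -0.27 to 0.01), and LRP2 had 39.2 and 29.3 (-0.42, interval -1.19 to 0.33).

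Among the GLI factors and their cytosolic regulators, 12 of 16 had an interval below 1 and 2 had one above 1, which were GLI1 and EFCAB7. The shares of all tested genes were 23.1% and 27.3%. GLI3, the main repressor form in cells without ligand, had 1349 and 653 normalised counts in CTL cells and 625 and 652 in ZNF521 cells. Its log2 ratio in CTL cells was -1.05 (interval -1.19 to -0.91), and 3 libraries shared a level near that of CTL cells with SAG. The same pattern held for SUFU, which tethers GLI proteins in the cytosol, at 566 and 333 in CTL cells against 339 and 327, and for GLI2, at 262 and 160 against 172 and 159. The kinesin KIF7, which holds GLI factors at the ciliary tip, had a log2 ratio of -0.39, and the ciliary zone proteins EVC and EVC2 had -0.38 and -0.57. EFCAB7, which anchors those EVC proteins, went the other way, with 71.4 and 140 in CTL cells (0.97) and 154 and 123 in ZNF521 cells. STK36 (-0.30), IQCE (-0.22), ARRB1 (-0.21), ARRB2 (-0.19) and ULK3 (-0.16) had intervals below 1, whereas those of SPOP (0.04) and DYRK2 (0.09) included 1. Relative to genes of like GC content the list's median of -0.26 was -0.10, IQCE (0.01), ARRB2 (0.03) and ULK3 (0.12) turned in sign, ARRB1 was at -0.03, and GLI3, at -0.94, was no longer past 2-fold. By the same measure EFCAB7 was at 0.48, KIF7 at -0.09, EVC at -0.16, EVC2 at -0.39, SUFU at -0.54 and GLI2 at -0.41, each nearer to no difference.

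Of the 16 kinases, regulatory subunits and ligase parts that process GLI proteins, 7 had an interval above 1 and 6 below 1. The shares of all tested genes were 27.3% and 23.1%. PRKACA, a catalytic subunit of protein kinase A, was at 1801 and 894 normalised counts in CTL cells and at 916 and 946 in ZNF521 cells (log2 ratio -1.01 in CTL cells, and -0.83 relative to genes of like GC content). The other catalytic subunit, PRKACB, was at 768 and 1014 (0.40), and the regulatory subunit PRKAR1A at 1767 and 2466 (0.48). CSNK1D (-0.48), GSK3A (-0.36) and CSNK1E (-0.28) were lower and CSNK1A1 (0.37) and PRKAR2B (0.47) higher. The median of the list, 0.07, turned to -0.04 when the median ratio of genes of like GC content was subtracted. Of the 46 tested genes for ciliary transport and the transition zone, 33 had a ratio above 1, with the interval above 1 in 20 and below 1 in 4, and none passed the 2-fold rule. In all tested genes the shares were 50.3% with a ratio above 1, and 27.3% and 23.1% for the intervals. IFT88, a subunit of the transport complex that builds the cilium, was at 92.5 and 167 in CTL cells and at 158 and 167 in ZNF521 cells. The list's median of 0.22 was 0.05 relative to genes of like GC content.

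**Figure D2:**
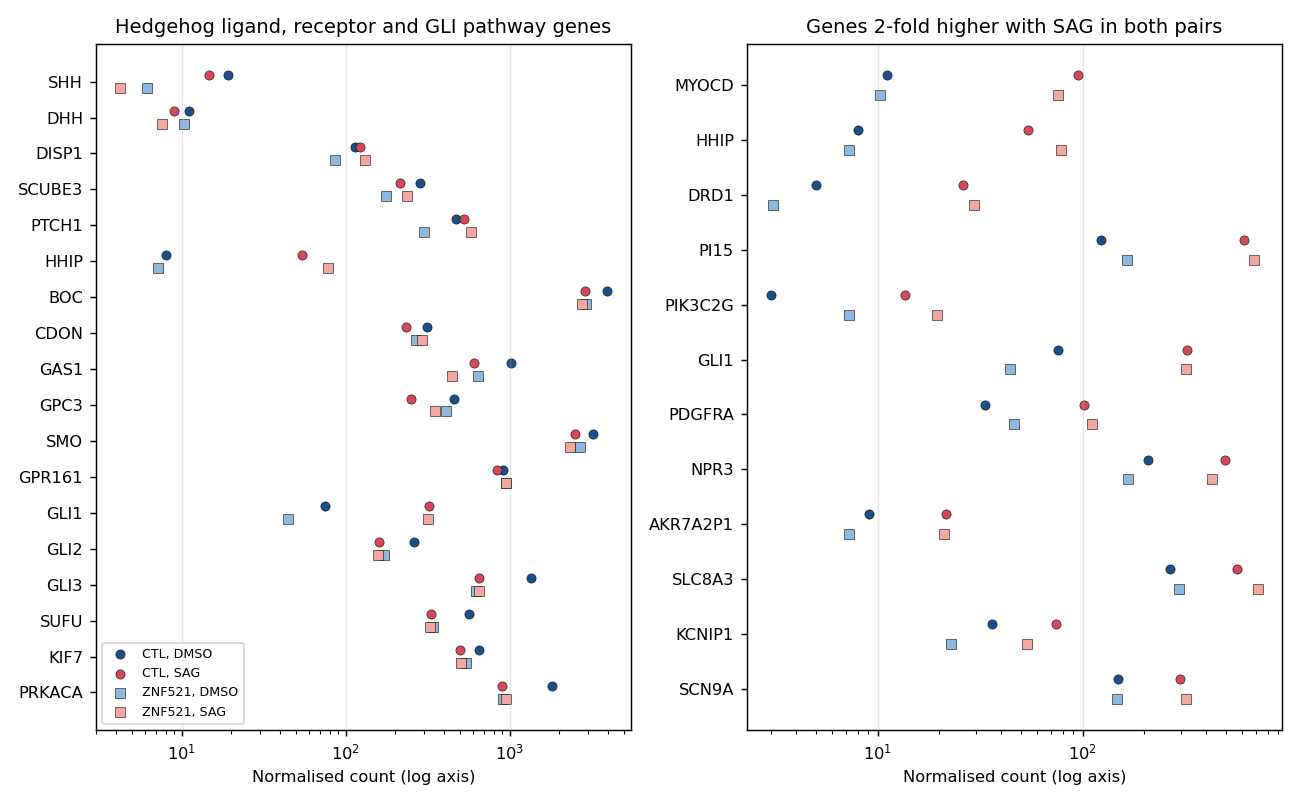
Normalised counts (log axis) of 18 Hedgehog pathway genes (left) and of the 12 genes at least 2-fold higher with SAG in both pairs (right) are plotted for the 4 libraries, 1 point each: circles for CTL cells, squares for ZNF521 cells, blue for DMSO and red for SAG. For GLI1 and HHIP the points split by treatment, whereas for GLI3, SUFU and PRKACA the dark blue circle of CTL cells with DMSO stands alone.

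The nonamer GACCACCCA, which GLI factors bind, was searched for on both strands of the promoter windows of RefSeq (GRCh38.p14), each running from 250 bases before to 50 after a gene's start. Of the 11855 tested genes with a window, 36 held it (0.304%). It was found in 0 of the 151 higher genes and in 3 of the 307 lower genes with a window. HHIP, PDGFRA, DRD1, NPR3, SCN9A, SLC8A3, KCNIP1 and PIK3C2G were among the genes without an exact match. Sites outside the windows and inexact sites were not searched for. GLI1, MYOCD and PI15 are not in the table of windows. PTCH1, whose ratio is given above, held 1 match, which begins at position -172 counted from a start. The study also reports a GLI site in the PTCH1 promoter, farther upstream by its own numbering. Whether that site is this match was not examined. The stretches around the match in PTCH1, at chr9:95509410-95509458 on the minus strand, and in the 3 lower genes are shown, since they are the windows of the pathway's receptor and of the 2-fold genes that carry these letters. They run 5′ to 3′ along the gene's strand, with the nonamer in capitals, or its reverse complement where the match is on the other strand.
PTCH1: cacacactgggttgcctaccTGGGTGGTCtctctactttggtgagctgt
TPP1: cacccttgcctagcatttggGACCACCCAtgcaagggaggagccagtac
ADAMTSL4: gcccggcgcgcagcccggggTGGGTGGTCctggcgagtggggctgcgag
BACH1-IT2: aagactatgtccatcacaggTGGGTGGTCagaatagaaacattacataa
TPP1, a lysosomal peptidase (stretch at chr11:6619491-6619539, minus strand), had 754 and 336 normalised counts in CTL cells and 344 and 386 in ZNF521 cells. ADAMTSL4, an extracellular matrix protein (chr1:150549235-150549283, plus strand), had 51.3 and 24.8 in CTL cells and 37.0 and 29.5 in ZNF521 cells. BACH1-IT2, an intronic transcript (chr21:29372254-29372302, plus strand), had 18.1 and 3.38 in CTL cells and 2.06 and 5.91 in ZNF521 cells. In all 3 genes CTL cells with DMSO had the highest level of the 4 libraries.

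Beside GLI1, HHIP and PDGFRA, 9 more genes were 2-fold higher with SAG in both pairs, which share no library. These 12 are named because they passed in both pairs, after their values were seen. They make up 5.83% of the 206 higher genes with at least 10 counts in the ZNF521 pair. Among the 14853 genes tested in both pairs, 56 (0.377%) were 2-fold higher in ZNF521 cells, and the 12 make up 21.4% of these. Genes tested in the ZNF521 pair alone are left out. MYOCD, a coactivator of SRF that turns on smooth and cardiac muscle genes (chr17:12665890-12768949, plus strand), had 11.1 and 94.7 normalised counts in CTL cells and 10.3 and 75.9 in ZNF521 cells. At 8.57-fold (log2 3.10, interval 2.19 to 4.16) it had the largest ratio of the higher genes with a mean of at least 50. Of the exon bases of MYOCD, 7.93% overlap ARHGAP44-AS1 on the other strand. PI15, a secreted peptidase inhibitor (chr8:74824534-74855029, plus strand), had 123 and 615 in CTL cells and 164 and 688 in ZNF521 cells, a 5.01-fold ratio in CTL cells. For both, the SAG libraries lay far above the DMSO libraries in each kind of cells.

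Of the other genes in this set, NPR3, the clearance receptor for natriuretic peptides, had 207 and 492 normalised counts in CTL cells and 167 and 428 in ZNF521 cells. SLC8A3, a sodium-calcium exchanger, had 265 and 568 against 295 and 716. SCN9A, a voltage-gated sodium channel, had 149 and 298 against 146 and 318. In these 3 genes both SAG libraries lay above both DMSO libraries, and the levels with SAG were higher by 2- to 2.57-fold in each pair. SCN9A in CTL cells was just past 2-fold and fell short of it when scaled by total counts or by TMM factors, and its log2 ratio was 0.67 relative to genes of like GC content. It shares 11.4% of its exon bases with SCN1A-AS1 on the other strand, so its value is uncertain. KCNIP1, a potassium channel regulator, had 36.2 and 74.4 in CTL cells and 22.6 and 53.2 in ZNF521 cells. The dopamine receptor gene DRD1 had 5.03 and 25.9 against 3.09 and 29.5, and the lipid kinase gene PIK3C2G had 3.02 and 13.5 against 7.20 and 19.4, so that both rested on few reads with DMSO. AKR7A2P1, a processed pseudogene, had 9.05 and 21.4 against 7.20 and 21.1. Its reads may belong in part to its parent gene, and its place is uncertain.

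Of the 13 higher genes in which CTL cells with DMSO did not have the lowest level, 8 belonged to this set. The other 5 were MBP, TIMP4, TMEM163, AGAP2-AS1 and CBWD6. TIMP4, an inhibitor of matrix metalloproteinases, had 22.1 and 60.9 normalised counts in CTL cells and 19.6 and 34.6 in ZNF521 cells, and MBP, a myelin protein, had 10.1 and 28.2 against 8.23 and 14.3. TMEM163 and AGAP2-AS1 were lower with SAG in the ZNF521 cells, at log2 ratios of -1.06 and -0.87 on 12 and fewer raw counts.

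In the lower direction, 12 genes passed in both pairs, which is 3% of the 400 lower genes with at least 10 counts in the ZNF521 pair. Among the genes tested in both pairs, 73 (0.491%) were 2-fold lower in ZNF521 cells, and the 12 make up 16.4% of these. The 12 genes were ADGRF1, CRB2, CSNK1G2-AS1, FSCN2, GGN, LRRC46, MMP25-AS1, RGS11, SH3GL1P2, SLC9A3, SOX10 and WNT6. SLC9A3, a sodium-proton exchanger, had the highest level of them, with 75.4 and 35.0 normalised counts in CTL cells and 70.0 and 34.6 in ZNF521 cells. WNT6, a secreted WNT ligand, had 50.3 and 18.0 against 37.0 and 10.1, and SOX10, a neural crest and oligodendrocyte factor, had 21.1 and 3.38 against 13.4 and 4.22. Reads of SLC9A3 overlap those of the antisense and neighbouring transcripts SLC9A3-AS1, PP7080 and EXOC3, and MMP25-AS1 and RGS11 overlap MMP25 and FAM234A. The strand setting of the counting is not stated, so these values are uncertain. Apart from SLC9A3, none of them had a mean normalised count of at least 50 over the CTL pair.

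Over all the higher genes the median log2 ratio was 1.21 in CTL cells and 0.16 in ZNF521 cells, and 154 of 206 (74.8%) had the same sign. Over the lower genes the medians were -1.31 and -0.08, and 235 of 400 (58.8%) had the same sign. The plot of both pairs shows most 2-fold genes of CTL cells at smaller ratios in the ZNF521 cells, with more of the higher genes above 0 than below it. Beside the sets named above, some genes kept part of their ratio, such as TIMP4 (0.82) and MBP (0.80).

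**Figure D3:**
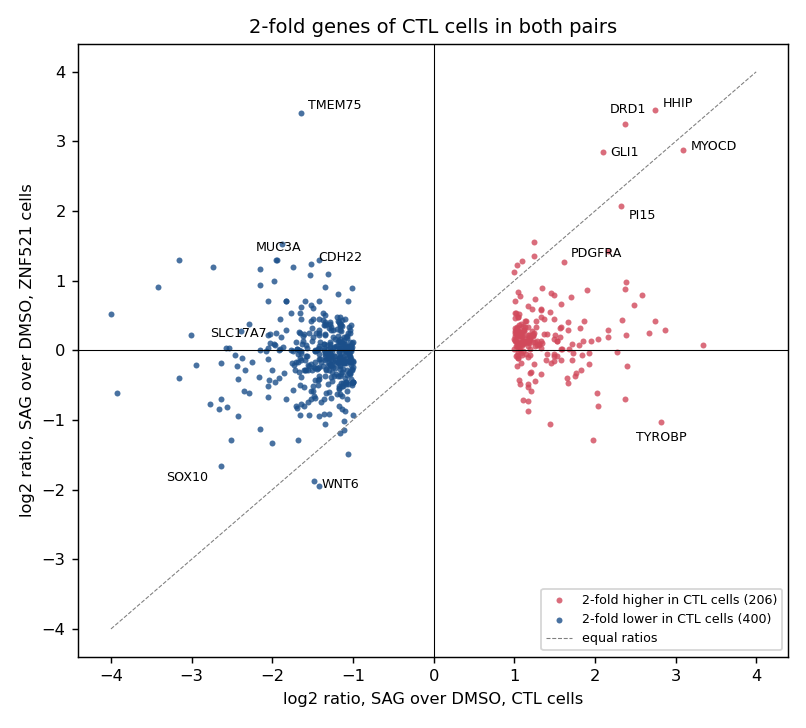
The log2 ratio of SAG over DMSO in ZNF521 cells (vertical axis) is plotted against that in CTL cells (horizontal axis) for the 206 higher (red) and 400 lower (blue) genes of CTL cells with at least 10 counts in the ZNF521 pair. MYOCD and PI15 lie near the dashed line of equal ratios and HHIP, DRD1 and GLI1 lie above it. Most other points lie near a ratio of 0 in ZNF521 cells.

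The ratio of SAG to DMSO followed the GC content of the transcripts. In 5 equal groups of genes by GC content, from 29.2 to 40.7% in the lowest to 58.1 to 83.9% in the highest, the median log2 ratio was 0.38, 0.17, -0.02, -0.18 and -0.29 in that order. The lowest group held 122 higher and 18 lower genes and the highest group 10 higher and 225 lower genes. The highest group thus lay 0.67 below the lowest in CTL cells, and 0.31 below it in ZNF521 cells, where the medians ran from 0.13 to -0.18. The median GC content was 39.8% in the higher genes, 58.1% in the lower genes and 48.3% over all genes. Across genes, which are not independent replicates and share their 2 libraries, the correlation of ratio and GC content was -0.48 in CTL and -0.36 in ZNF521 cells. By transcript length, the medians of 5 equal groups ran from -0.04 to 0.07 in CTL cells without an order, although the number of higher genes was 80, 38, 36, 35 and 22 from the shortest to the longest. In ZNF521 cells the medians went up with length, from -0.09 to 0.12. After the median of the GC bin was subtracted, 104 of the 213 higher and 297 of the 450 lower genes kept a ratio of at least 2-fold in size. GLI1, whose transcript holds 59.3% GC, had a log2 ratio of 2.34 after this step, HHIP (36.9% GC) 2.26, MYOCD (45.0% GC) 3.01 and PI15 (33.0% GC) 1.84. Whether the GC trend arose in the cells or in library preparation was not tested.

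**Figure D4:**
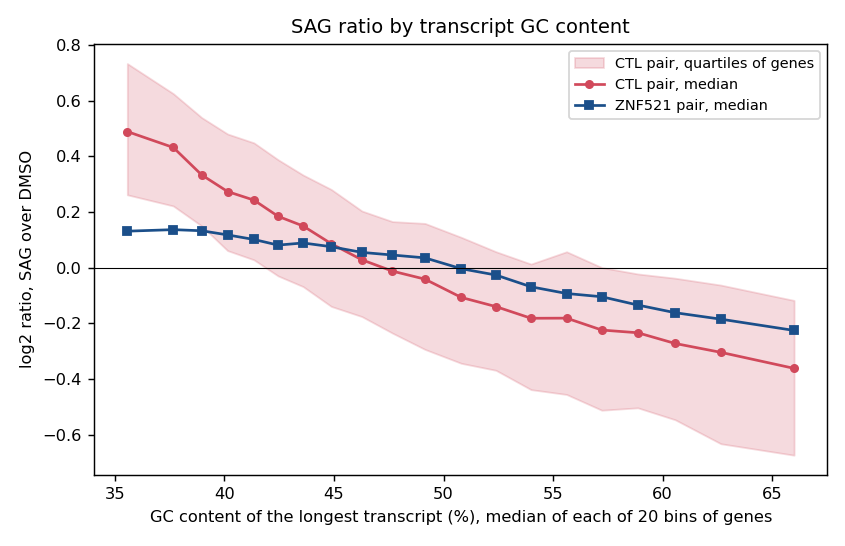
The median log2 ratio of SAG over DMSO is plotted against transcript GC content (%) in 20 bins of genes, in red for CTL cells, with the quartiles of genes shaded, and in blue for ZNF521 cells. Both lines run downward with GC content, and that of CTL cells spans the wider range.

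Most genes for collagens and the basement membrane had ratios below 1 with SAG, and few passed the 2-fold rule. Of 32 tested collagen chains 30 had a ratio below 1, with the interval below 1 in 19 and above 1 in 1. In all tested genes the interval lay below 1 in 23.1% and above 1 in 27.3%. The median log2 ratio was -0.50, or -0.28 relative to genes of like GC content and -0.19 relative to genes of like GC content and length. COL1A1, the alpha 1 chain of fibrillar type I collagen, had 15912 and 4913 normalised counts in CTL cells and 5241 and 5316 in ZNF521 cells. COL5A1, a chain of type V collagen, had 9759 and 4023 against 4316 and 4155, and COL5A3 had 104 and 38.3 against 54.5 and 38.8. These were the 3 collagen genes past the 2-fold rule. In each of them CTL cells with DMSO were high and the other 3 libraries lay close together. COL15A1 was the collagen gene with an interval above 1, at 139 and 214 (0.63). The summed level of the list was 112844 normalised counts in CTL cells with DMSO and 61884 to 66369 in the other 3 libraries.

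Of 18 basement membrane genes 17 had a ratio below 1, with a median of -0.46, and LAMA5, a laminin chain, and HSPG2, the proteoglycan perlecan, passed the 2-fold rule. LAMA5 had 945 and 372 normalised counts in CTL cells and 416 and 322 in ZNF521 cells, and HSPG2 had 1724 and 715 against 779 and 704. Relative to genes of like GC content the list's median was -0.27, and neither LAMA5 (-0.98) nor HSPG2 (-0.91) was past 2-fold. Among 47 glycoproteins and proteoglycans, 8 were 2-fold lower and 3 higher, with a median of -0.36. BGN (biglycan) was at 675 and 268 in CTL cells and at 251 and 229 in ZNF521 cells, and LTBP3, which binds latent TGF-beta, at 2750 and 1115 against 1127 and 1039. LTBP3 was at a log2 ratio of -0.94 relative to genes of like GC content, below 2-fold. LUM (lumican) was higher, at 69.4 and 141 against 128 and 140, with CTL cells with DMSO again apart, and its log2 ratio of 1.02 was 0.53 relative to genes of like GC content. FN1, fibronectin, was among the 3 most abundant members, at 66824 and 34792 normalised counts in CTL cells and 35242 and 33515 in ZNF521 cells, a log2 ratio of -0.94. In the ZNF521 cells the medians of these 3 matrix lists were -0.07, -0.02 and 0.0021. Of 54 proteases, inhibitors and cross-linkers the median was -0.22, and PI15, TIMP4 and ADAMTS7 passed the 2-fold rule, the last with a log2 ratio of -1.06, or -0.69 relative to genes of like GC content.

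Most cell cycle genes had ratios above 1, by small amounts. Of 43 tested genes of G2 and mitosis, 35 had a ratio above 1, with the interval above 1 in 33 and below 1 in 6. The median log2 ratio was 0.33, or 0.22 relative to genes of like GC content and 0.16 relative to genes of like GC content and length. The checkpoint kinase TTK had 384 and 1081 normalised counts in CTL cells and 963 and 1082 in ZNF521 cells, and CDK1, the mitotic kinase, had 468 and 1121 against 982 and 1072. HMMR had 279 and 610 against 507 and 552, and ECT2, which drives cytokinesis, had 809 and 1690 against 1432 and 1697. In these 4 genes, the ones of the list past the 2-fold rule, ZNF521 cells with DMSO lay near the SAG libraries. TTK stayed past 2-fold (1.25) relative to genes of like GC content, and CDK1 (0.83), HMMR (0.64) and ECT2 (0.63) did not. The phosphatase CDC25B, at 4729 and 2850 (-0.73), the proliferation marker MKI67, at 4713 and 3353 (-0.49), TACC3 (-0.48) and the kinase PLK1 (-0.35) were lower. MKI67 was at 2450 and 3394 in ZNF521 cells, higher with SAG.

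Of 39 S phase genes 35 had a ratio above 1, with a median of 0.23, and CCNE2, which encodes cyclin E2, passed the 2-fold rule at 55.3 and 114 normalised counts in CTL cells and 107 and 99.6 in ZNF521 cells. Its log2 ratio of 1.04 was 0.61 relative to genes of like GC content, which ends this call. PRIM1, a primase subunit, the helicase gene BLM and the checkpoint gene CLSPN had log2 ratios of 0.73, 0.72 and 0.60. TYMS, thymidylate synthase, was lower at 292 and 159 (-0.88), with 166 and 154 in ZNF521 cells. The 25 genes of G1 had a median of 0.17, with RB1 at 525 and 842 (0.68) and the cell cycle inhibitor gene CDKN2A at 202 and 149 (-0.44).

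Nearly all ribosomal protein, respiratory and histone genes had ratios above 1. Of 77 cytosolic ribosomal protein genes 72 had a ratio above 1 (median log2 ratio 0.27), of 39 subunits of oxidative phosphorylation 36 (0.25), and of 48 replication-dependent histone genes 47 (0.49). Relative to genes of like GC content these medians were 0.33, 0.23 and 0.61, and in the ZNF521 cells -0.05, -0.04 and -0.14. The lists hold short transcripts, and relative to genes of like GC content and length the medians in CTL cells were 0.22, 0.14 and 0.42. The summed level of the histone genes was 173893 normalised counts in CTL cells with DMSO and 236225 to 262830 in the other 3 libraries. Of the 3 lists, RPL7 alone passed the 2-fold rule, at 3908 and 9534 normalised counts in CTL cells and 7974 and 8444 in ZNF521 cells. Its log2 ratio of 1.29 was 0.95 relative to genes of like GC content, which ends the call. Ribosomal protein and histone genes have near-identical copies, between which reads may be split. HIST1H2AE had 415 and 773 (0.90), and COX6C, a subunit of cytochrome c oxidase, had 516 and 965 (0.90).

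**Figure D5:**
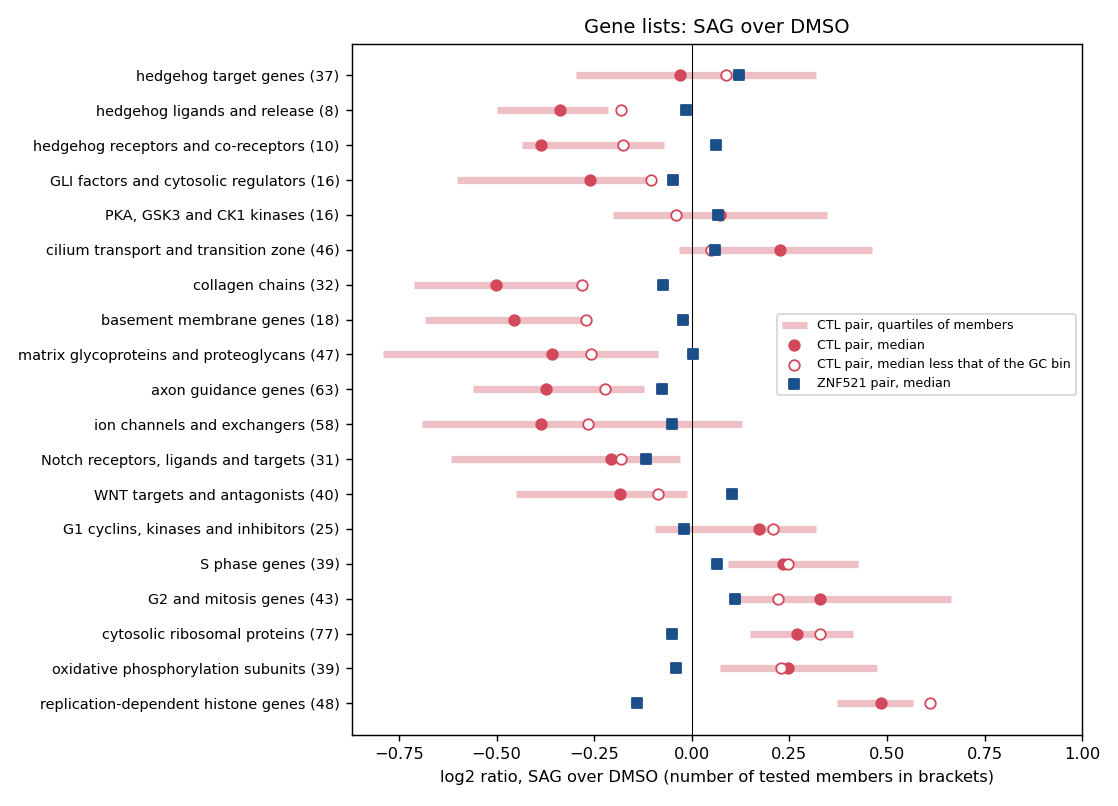
Median log2 ratios of SAG over DMSO are plotted for 19 gene lists, with tested members in brackets: filled red circles for CTL cells, with bars for the quartiles of members, open red circles for the same less the median of the GC bin, and blue squares for ZNF521 cells. Matrix lists lie to the left of 0 and ribosomal protein, respiratory and histone lists to the right in CTL cells, while the blue squares lie near 0.

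MYOCD acts on contractile genes of smooth muscle, and these did not share a direction. Of 22 tested members 13 had a ratio above 1, with the interval above 1 in 6 and below 1 in 6, and the median log2 ratio was 0.09. These counts are not far from the shares of all tested genes, which were 50.3%, 27.3% and 23.1%. CALD1, an actin-binding protein, had 1126 and 2440 normalised counts in CTL cells and 1836 and 2239 in ZNF521 cells, and SYNPO2 had 1747 and 2470 against 2294 and 1840. MYH11, the smooth muscle myosin heavy chain, had 115 and 46.2 against 72.0 and 51.5, and the SRF gene had 1325 and 1094 against 1122 and 1042. CALD1 and MYH11 passed the 2-fold rule in opposite directions in CTL cells and neither did in ZNF521 cells. CALD1 (0.87) was no longer past 2-fold relative to genes of like GC content, and MYH11 (-1.13) still was.

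Lists of axon guidance, ion channel, Notch and WNT genes had medians below 0. Of 63 axon guidance genes 53 had a ratio below 1 (median log2 ratio -0.37), of 58 ion channels and exchangers 40 (-0.39), of 31 Notch pathway genes 24 (-0.21) and of 40 WNT targets and antagonists 31 (-0.18). Relative to genes of like GC content these medians were -0.22, -0.27, -0.18 and -0.09, and relative to genes of like GC content and length -0.09, -0.17, -0.12 and -0.04. In the ZNF521 cells they were -0.08, -0.05, -0.12 and 0.10. NOTCH3, a Notch receptor, had 607 and 229 normalised counts in CTL cells and 381 and 351 in ZNF521 cells, and HES4, a target of the pathway, had 457 and 210 against 271 and 191. TCF7L2, a transcription factor of the WNT pathway, had 428 and 198 against 246 and 256. CTL cells with DMSO were the highest library for each of these 3 genes. HES4 was at -0.76 relative to genes of like GC content and so below 2-fold, while NOTCH3 (-1.10) and TCF7L2 (-1.20) were not. The 13 tested granule precursor markers had a median of -0.03, with 5 above and 8 below a ratio of 1.

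In the remaining lists the median log2 ratio was 0.11 for cholesterol synthesis, 0.18 for glycolysis and hypoxia, 0.17 for p53 targets and 0.07 for interferon-stimulated genes, and -0.15 for lysosomal genes, -0.07 for the stress response of the endoplasmic reticulum, -0.11 for immediate early genes, -0.19 for YAP targets and -0.08 for the BMP and TGF-beta response. HSPA5, the chaperone BiP, had 6786 and 3414 normalised counts in CTL cells and 3181 and 3610 in ZNF521 cells (-0.99). EGR1, an immediate early transcription factor, had 436 and 180 against 267 and 253, SKI, a repressor of SMAD signalling, 1260 and 542 against 629 and 562, and INHBA, a subunit of activin, 173 and 347 against 221 and 305. SAMD9, an interferon-induced gene, had 315 and 736 against 735 and 857. EGR1 stayed past 2-fold (-1.09) relative to genes of like GC content, and SKI (-0.94), INHBA (0.67) and SAMD9 (0.74) did not. Of the genes of growth factors and their receptors, PDGFRA alone passed the 2-fold rule, and the 41 tested had a median of -0.15.

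Of the 15 higher genes of largest ratio, MYOCD, PI15, GLI1 and PDGFRA have been described. AMY2B, an alpha-amylase, had 184 and 971 normalised counts in CTL cells and 1207 and 1035 in ZNF521 cells, and CENPQ, a kinetochore subunit, had 42.2 and 189 against 170 and 194. SF3B6, a splicing factor subunit, had 391 and 1177 against 1031 and 1050, and RAB13, a small GTPase, had 78.4 and 273 against 267 and 280. SCOC, COMMD8, OR52A1, OVCH1-AS1, NR2F2-AS1, MTRNR2L1 and CARD16 were 2.99- to 4.83-fold higher. In each of these 11 genes CTL cells with DMSO were the lowest of the 4 libraries. Reads of AMY2B may be shared with near-identical amylase genes and overlap RNPC3, those of MTRNR2L1 may come from the mitochondrial ribosomal RNA that it copies, and RAB13 and OVCH1-AS1 overlap other genes, so that these 4 values are uncertain.

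Of the 15 lower genes of largest ratio, POLR2A, the largest subunit of RNA polymerase II, was the most abundant, with 8882 and 2368 normalised counts in CTL cells and 2113 and 2150 in ZNF521 cells. ATN1, the corepressor atrophin-1, had 1228 and 227 against 272 and 232, and TAF10, a TFIID subunit, had 312 and 59.8 against 59.7 and 72.6, although 40.8% of its exon bases overlap ILK on the other strand. SLC17A7, a vesicular glutamate transporter, had 98.5 and 16.9 against 32.9 and 33.7. Among the 12 tested neuron markers, to which it belongs, 8 had a ratio below 1 and 4 above 1, such as GAP43 (155 and 191 in CTL cells). NOVA2, a splicing regulator, had 319 and 71.0 against 106 and 81.0, and TUBB4A, a beta-tubulin, had 221 and 56.4 against 76.1 and 80.1. PIANP, RSPO4, PDXP, SSC5D, MN1, USB1, SBK1, ZNF385A and CYP2S1 were 3.29- to 4.09-fold lower. PDXP shares 62.5% of its exon bases with another gene model on its strand. In 14 of the 15 genes CTL cells with DMSO were the highest library, and the exception was CYP2S1, a cytochrome P450, with 119 and 36.1 against 120 and 98.7.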

How the data were processed

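Per the study's methods, stranded total RNA libraries, described both as enriched for poly-A and as depleted of ribosomal RNA, were read as 50 nt pairs. The submitters' processing notes name STAR 2.7.0e, hg38 and DESeq2. The deposited table of whole counts per gene was made by the authors. The deposited signal values are those counts divided by the authors' size factor of each library (0.887 to 1.19). The annotation and strand setting are not given in the sources used here. Values of genes that overlap others on either strand are therefore uncertain, also where the text does not say so. By share of exon bases on the other strand, these include TUBB4A (16.1%), CDON (14.2%) and KIF7 (10.8%). Ratios of SAG to DMSO were computed from the normalised counts with exact Clopper-Pearson 95% intervals from the raw counts (Python 3.11.15, scipy 1.17.1), for genes with at least 10 raw counts in a CTL library. With 1 library a side no test was run. A simulated pair with known ratios was used to check the computation. GC content and length of the longest GENCODE transcript were matched for 15141 genes (99.8%), and the median of 20 GC bins was subtracted where stated. Alternatives were total counts, TMM factors (edgeR 4.0.16), other filters, GC and length bins and other call rules. Of 1343 list members written in 40 lists, 1313 were in the table, all by their own symbol. Named genes were the 15 of largest ratio a direction with a mean of at least 50, tested Hedgehog ligand, receptor and GLI genes, and up to 4 members a direction of each other list with a mean of at least 50 and an interval that leaves out 1. Genes of low level that passed the 2-fold rule in a short list, abundant members, other Hedgehog targets and genes 2-fold in both pairs were named after their values were seen. Members and lists were chosen with earlier results of these data known. A few members are left out of the text.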

Additional observations from a re-analysis of the deposited data

Results flagged for a closer look

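In 4 genes both pairs passed the 2-fold rule in opposite directions. These were 1 of the 206 higher genes (0.485%) and 3 of the 400 lower genes (0.75%) with at least 10 counts in the ZNF521 pair. Over the 14853 genes tested in both pairs, 0.491% were 2-fold lower and 0.377% 2-fold higher in ZNF521 cells, so the shares are small and of like size. In each of the 4 genes CTL cells with DMSO were the highest or the lowest library. The difference between the pairs was not tested, since each condition is 1 library. TYROBP, a signalling adaptor of immune cells, had a log2 ratio of SAG over DMSO of 2.82 in CTL cells and -1.03 in ZNF521 cells, on 7 and 44 raw counts in CTL cells. The ratio of CDH22, a cadherin, was -1.52 against 1.24, on 29 and 9 raw counts in CTL cells and 8 and 23 in ZNF521 cells. That of MUC3A, a mucin, was -1.94 against 1.30, on 56 and 13 against 16 and 48. TMEM75, a long noncoding transcript, had -1.64 in CTL cells, and 3.41 in ZNF521 cells from 1 and 13 raw counts (interval 0.68 to 8.82).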

How the results depend on the processing

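The 213 higher genes became 127 with at least 50 counts in a library, 125 after the median of the GC bin was subtracted, 106 after that of the GC and length bin, 1054 with a 1.5-fold rule and 338 with the whole interval beyond 1.5-fold. The 450 lower genes became 236 with at least 50 counts and 1198 with a 1.5-fold rule. The other alternatives gave 162 to 267 higher and 305 to 659 lower genes. Of the main calls, 94 higher and 260 lower genes were kept after the GC step. The difference between the highest and lowest of the 5 GC groups ran from -0.67 to -0.60 over its alternatives. Scaling by total counts moved the median of all genes by -0.03. The median of the Hedgehog targets, -0.03, was 0.09 after the GC step, and that of cytokines, 0.06, was -0.01 after the GC and length step. Leaving out either CTL library leaves no ratio. A paired fit over the CTL and ZNF521 pairs, which gives the effect over both kinds of cells together, was not run. Without the rule on the interval 267 higher and 659 lower genes reached 2-fold, so that counting error kept out the rest.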

Other observations

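Of the marker lists of other cell types, the 12 tested neuron markers had a median log2 ratio of -0.61, the 15 fibroblast and mesenchymal markers -0.09, the 8 epithelial markers -0.26, the 7 endothelial markers -0.04, the 5 skeletal muscle markers -0.39 and the 9 astrocyte and oligodendrocyte markers 0.03. With at least 10 counts in both CTL libraries the neuron median was -0.04, the epithelial -0.07 and the skeletal muscle -0.13. That filter drops genes that were low in either library. With at least 50 counts in at least 1 library the neuron median was -0.32, the epithelial 9.1e-05 and the skeletal muscle -0.28. These 3 medians thus depended on the filter. The summed level of the mesenchymal markers was 140946 normalised counts in CTL cells with DMSO and 83680 to 90496 in the other 3 libraries, while that of the neuron markers was 626 against 505 to 563. TIE1, an endothelial receptor gene, was at 1258 and 832 normalised counts in CTL cells and at 1217 and 1077 in ZNF521 cells.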
